A study of Mus musculus with 36 samples.

Results

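Hippocampus (HIP) and medial prefrontal cortex (PFC) of mice that received vehicle alone were compared for region identity without drug, on 6 of the 36 Illumina MouseWG-6 BeadChip arrays of the study. The 6 arrays were chosen by their labels, as 3 HIP and 3 PFC arrays with vehicle as the treatment. All animals were adult male mice, labelled as strain C57BL/6J. Vehicle, a mix of saline, PEG-400 and DMSO, was injected i.p. once a day for 10 days, and brains were taken 1 h after the last injection. RNA of 2 mice was combined for an array, and both regions came from the same animals, mice 1+2 in pool 1, 3+4 in pool 2 and 5+6 in pool 3. The other arrays held nucleus accumbens (NAc) from the same vehicle mice and all 3 regions of mice given an HDAC inhibitor, which was CI-994 at 10, SAHA at 25 or Cpd-60 at 45 mg/kg. A probe was tested in HIP against PFC if it was detected in all 3 arrays of at least 1 region, which left 21632 of 45281 probes with 15471 gene symbols.

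The hippocampal formation is built of granule cells in the dentate gyrus and pyramidal cells in the CA fields, linked in series by mossy fibers and Schaffer collaterals, and is known for its part in spatial and episodic memory. The PFC is neocortex, with upper layers of cortically projecting neurons and deep layers that project to subcortical targets. Both hold glutamatergic neurons of the dorsal telencephalon, interneurons born in the ventral telencephalon, and glia. Dissected tissue mixes all of these cells, so that a change in cell number and a change in RNA per cell cannot be told apart. Levels are given as the log2 of the quantile-normalized intensity of a probe. A difference is HIP minus PFC within a pool, with its standard error (SE) from limma. This SE is moderated, so it draws on the spread of all tested probes as well as on that between pools.

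Each of the 6 BeadChips held 6 arrays of 1 region, so the BeadChip and the region cannot be told apart from the vehicle arrays alone. Vehicle pools 1 and 2 lay on the first BeadChip of their region and pool 3 on the second. Within a region, the 12 arrays of all treatments allowed the 2 BeadChips to be compared. No pool of mice lay on both BeadChips of a region. A BeadChip difference below therefore cannot be told apart from a difference between those mice or their RNA samples. At an adjusted p under 0.05 by limma they differed for 31 of the tested probes in PFC, 281 in HIP and 5344 in NAc. For 5413 probes they differed in at least 1 region, and the remaining 16219 probes are called BeadChip-stable below. BeadChip-stable thus means that no such difference was called, not that the BeadChips were equal. It also does not compare the BeadChips of PFC with those of HIP. Across all tested probes, HIP minus PFC correlated with the second minus the first NAc BeadChip (Pearson r = 0.71, Spearman rho = 0.61), as a description across probes that share the same arrays and normalization. Among BeadChip-stable probes r was 0.34. The share of this in any difference was not tested, and the counts of probes and of list members called in HIP against PFC are therefore also given for BeadChip-stable probes where these are fewer. Between 35.6% and 39.7% of all probes were above background (detection p of at most 0.01) on the 6 arrays, and the median raw intensity lay between 85.6 and 101.9. Levels correlated between 0.987 and 0.995 within a region and between 0.942 and 0.965 across the 2 regions.

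**Figure D1:**
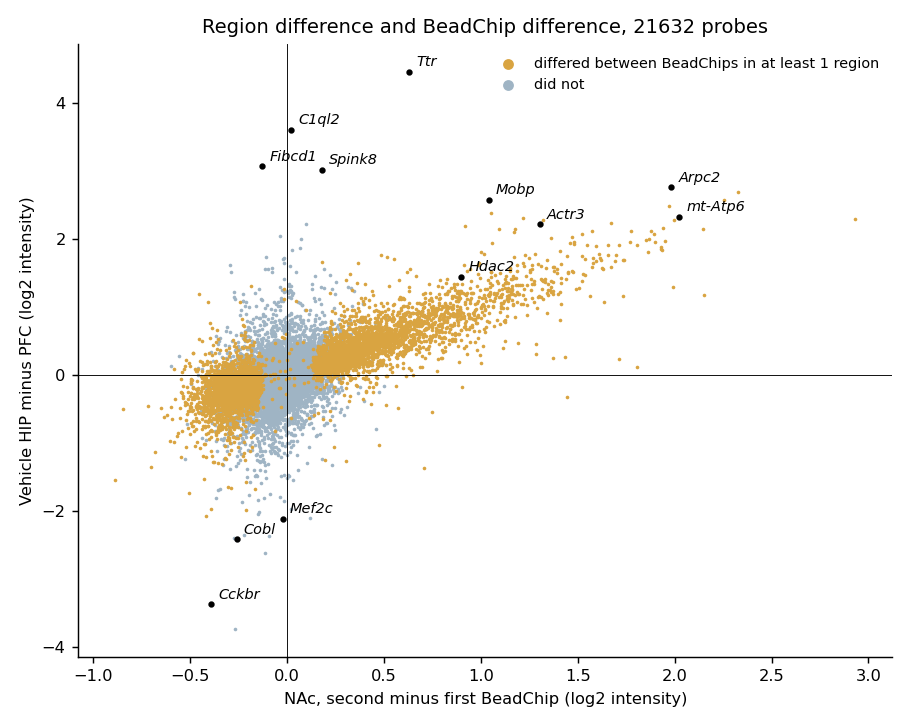
Each point is 1 of the tested probes, with the difference between the second and first NAc BeadChip (log2 intensity, all treatments) on the x axis and the vehicle HIP minus PFC difference (log2 intensity) on the y axis. Yellow probes differed between BeadChips in at least 1 region and blue probes did not. C1ql2, Fibcd1, Spink8, Cobl and Mef2c lie between -0.26 and 0.18 on the x axis, whereas Arpc2 lies at 1.98 on it and 2.77 on the y axis and mt-Atp6 at 2.02 and 2.33.

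At an adjusted p under 0.05, 3777 probes were higher in HIP (17.5% of those tested) and 4298 were lower (19.9%), 8075 in all (37.3%). The median difference of all tested probes was -0.03. Among BeadChip-stable probes 4478 were called (27.6%), 1499 higher (9.24%) and 2979 lower (18.4%). HIP was therefore the higher side for 46.8% of all called probes and for 33.5% of the called BeadChip-stable probes, and for 79.6% after median scaling in place of quantile normalization. The 3 HIP values lay above the 3 PFC values for 4810 probes (22.2%) and below them for 5551 (25.7%). At least 2-fold differences were less common, with 471 probes higher in HIP (2.18%) and 151 lower (0.698%). Of the 471, 379 (80.5%) were also higher on the second NAc BeadChip, against 12.5% of all tested probes. Of the 151, 38 (25.2%) were lower on it, against 12.2% of all. The BeadChip-stable probes held 83 with a difference of at least 2-fold upward (0.512%) and 108 downward (0.666%).

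C1ql2, Fibcd1 and Spink8 had the largest BeadChip-stable differences toward HIP. The promoters of 3 leading genes and of the marker Prox1 are shown to identify them, from the RefSeq annotation of GRCm38.p6, with 250 bases before and 50 after the start site, read 5′ to 3′ on the strand of the gene. C1ql2, Fibcd1 and Prox1 were higher in HIP and Mef2c was higher in PFC. The windows are chr1:120340332-120340631 (plus strand), chr2:31845956-31846255 (minus), chr1:190170778-190171077 (minus, the first of 2 listed) and chr13:83503784-83504083 (plus, the first of 3 listed). Capitals mark CAGATG, an E-box of the kind that NeuroD-family factors are known to bind, and TATAAA, each on either strand (CATCTG and TTTATA on the other).
C1ql2: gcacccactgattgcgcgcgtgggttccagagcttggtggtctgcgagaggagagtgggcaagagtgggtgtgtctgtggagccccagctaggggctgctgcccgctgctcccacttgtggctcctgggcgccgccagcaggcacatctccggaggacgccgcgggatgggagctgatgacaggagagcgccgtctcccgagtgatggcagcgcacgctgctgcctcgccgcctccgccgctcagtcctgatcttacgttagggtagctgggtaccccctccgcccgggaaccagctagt
Fibcd1: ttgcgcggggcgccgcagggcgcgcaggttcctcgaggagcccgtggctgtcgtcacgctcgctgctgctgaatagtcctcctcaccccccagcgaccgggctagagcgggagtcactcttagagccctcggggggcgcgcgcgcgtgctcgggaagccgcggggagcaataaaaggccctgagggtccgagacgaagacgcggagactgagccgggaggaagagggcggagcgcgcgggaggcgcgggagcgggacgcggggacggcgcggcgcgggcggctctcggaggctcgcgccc
Prox1: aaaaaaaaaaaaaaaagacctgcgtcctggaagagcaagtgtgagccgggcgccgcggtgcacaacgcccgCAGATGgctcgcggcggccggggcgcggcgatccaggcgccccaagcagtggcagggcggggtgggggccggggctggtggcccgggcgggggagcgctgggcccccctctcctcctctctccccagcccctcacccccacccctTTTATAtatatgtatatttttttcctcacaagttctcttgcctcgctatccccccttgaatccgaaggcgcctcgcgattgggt
Mef2c: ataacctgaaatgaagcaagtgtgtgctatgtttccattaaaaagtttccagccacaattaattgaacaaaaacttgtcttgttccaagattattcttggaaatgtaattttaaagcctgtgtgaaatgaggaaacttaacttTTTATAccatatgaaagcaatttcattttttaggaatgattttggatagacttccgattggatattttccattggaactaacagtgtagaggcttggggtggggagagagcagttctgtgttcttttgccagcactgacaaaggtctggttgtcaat
The Prox1 window held CAGATG at 179 bases before the start site and TTTATA at 34 bases before it, and the Mef2c window held TTTATA at 107 bases before it. Of the 32851 promoter windows in the RefSeq table, 17.2% held CAGATG and 13.6% held TATAAA on either strand. These matches are a description of the letters.

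C1ql2, a secreted C1q-like protein of dentate granule cell mossy fibers, had log2 levels of 10.83, 10.73 and 10.97 in the 3 HIP pools and 7.23, 7.15 and 7.31 in the 3 PFC pools. The groups were far apart, and the difference was 3.61 ± 0.07 (SE, n = 3 pools), or 12.2-fold (adjusted p = 8.26e-09). Fibcd1, a transmembrane receptor known as a CA1 marker, had 10.02, 10.28 and 10.62 in HIP and 7.27, 7.13 and 7.29 in PFC, a difference of 3.07 ± 0.10 (adjusted p = 2.01e-07). Spink8, a predicted Kazal-type serine protease inhibitor of hippocampal pyramidal cells, had 9.59, 9.79 and 9.98 in HIP and 6.62, 6.68 and 7.00 in PFC, a difference of 3.02 ± 0.07 (adjusted p = 1.96e-08). It was above background on 1 of the 3 PFC arrays. None of these 3 probes differed between BeadChips in any region. In the NAc of the same mice their mean levels were 6.89, 7.78 and 7.17.

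The next BeadChip-stable genes toward HIP were ranked after the BeadChip difference had been seen. Pcdh20, a protocadherin, was 2.23 ± 0.07 higher, and its other probe was 1.52 ± 0.07 higher. Klk8, the secreted protease neuropsin, was 2.05 ± 0.08 higher and Cpne6, a calcium-dependent phospholipid-binding copine, was 2.00 ± 0.11 higher. Every one of these had 3 HIP values above all 3 PFC values, as the naming rule requires. Pkp2, a desmosomal plakophilin, was 1.88 ± 0.07 higher, with the other 2 probes of the gene 1.52 and 1.02 higher. Golm1 (1.84 ± 0.07), a Golgi membrane protein, Serpina3n (1.74 ± 0.07), a secreted protease inhibitor, and Cabp7 (1.73 ± 0.08), a calcium-binding protein, followed. Olfml2b (1.71 ± 0.07), Car12 (1.65 ± 0.12), a carbonic anhydrase, and Doc2b (1.63 ± 0.08), a calcium sensor of vesicle release, came next. Of the 14 BeadChip-stable genes with the largest called differences toward HIP, 12 were also called higher in HIP than in NAc by limma, against 4.02% of all probes tested there. That comparison uses the same HIP arrays as the choice of these genes, so nothing is read from it. The exceptions were Doc2b, with a HIP minus NAc difference of -0.14 (adjusted p = 0.58), and Car12, which was lower in HIP than in NAc by this measure (-0.96, adjusted p = 0.0080).

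**Figure D2:**
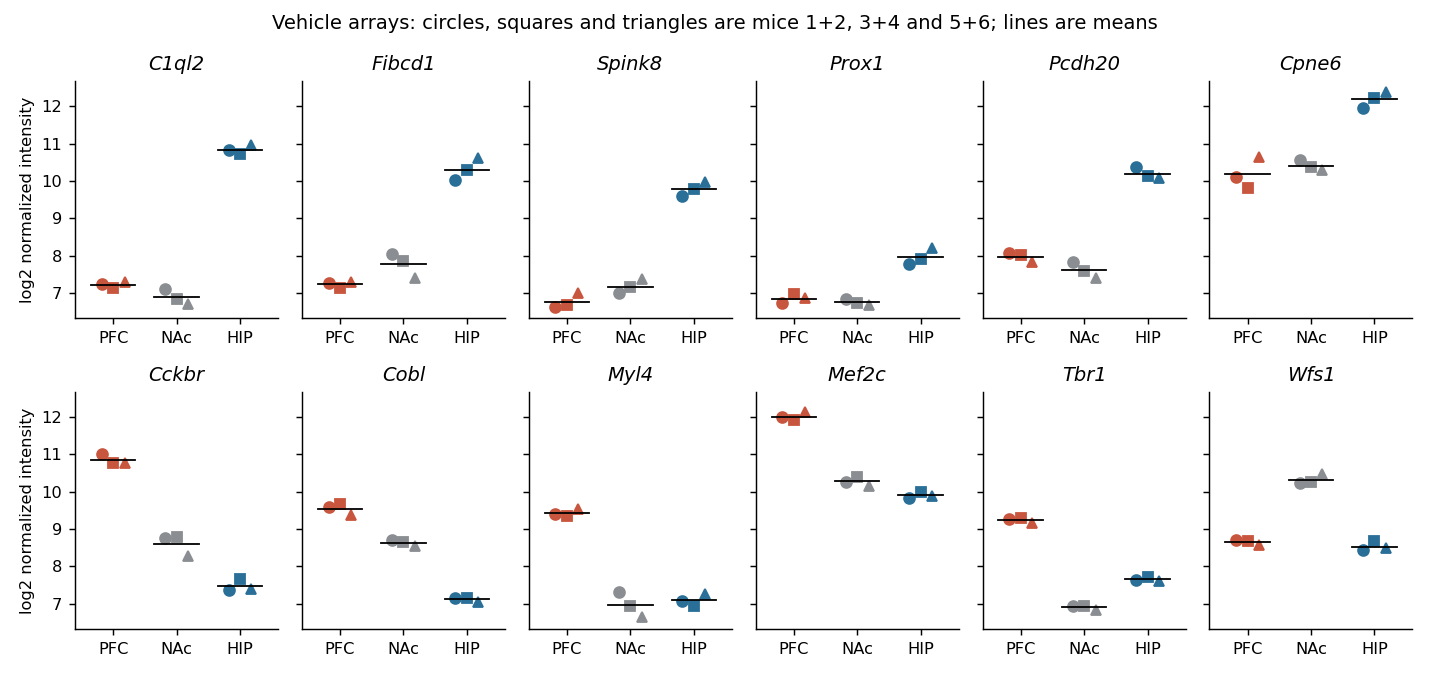
The log2 normalized intensity of 12 genes is shown on each vehicle array of PFC, NAc and HIP, with circles for pool 1, squares for pool 2, triangles for pool 3 and a line at the mean. C1ql2, Fibcd1, Spink8 and Prox1 are high in the 3 HIP arrays, Cckbr, Cobl, Myl4, Mef2c and Tbr1 are high in the 3 PFC arrays, and Wfs1 is high in the 3 NAc arrays and overlaps between HIP and PFC.

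The 4 markers chosen for region identity did not behave alike. Prox1, the homeobox factor that specifies dentate granule cells, had levels of 7.78, 7.90 and 8.20 in HIP and 6.72, 6.96 and 6.87 in PFC. The groups did not overlap, the difference was 1.11 ± 0.08 (adjusted p = 1.29e-05) and the second probe was 0.38 ± 0.07 higher. Zbtb20, a zinc-finger factor needed for hippocampal pyramidal identity and listed on the array as Zfp288, was 0.61 ± 0.07 higher (adjusted p = 1.02e-04), with 7.32, 7.43 and 7.46 in HIP and 6.77, 6.75 and 6.88 in PFC. Its mean in NAc was 7.43, and HIP minus NAc was -0.02 (adjusted p = 0.91). Neurod2, a transcription factor of excitatory neurons in both regions, was 0.72 ± 0.08 higher in HIP on a probe that differed between BeadChips and 0.91 ± 0.09 higher on one that did not. Wfs1, a reticulum protein used as a CA1 marker, had 8.44, 8.68 and 8.49 in HIP and 8.71, 8.67 and 8.58 in PFC. Its groups overlapped and the difference of -0.12 ± 0.07 was not called (adjusted p = 0.24), with the sign turned to 0.11 after median scaling. In NAc, Wfs1 was 1.79 higher than in HIP (HIP minus NAc of -1.79, adjusted p = 0.0018).

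Cckbr, the cholecystokinin B receptor, had 7.38, 7.67 and 7.41 in HIP and 11.02, 10.77 and 10.77 in PFC, a difference of -3.37 ± 0.10 (adjusted p = 9.18e-08). Its NAc level was 8.75 and 8.79 on the first BeadChip and 8.29 on the second, and over all treatments the NAc BeadChip difference was -0.39. Cobl, an actin nucleator, had 7.17, 7.16 and 7.06 in HIP and 9.58, 9.68 and 9.38 in PFC. Its difference was -2.42 ± 0.07, and a second probe was above background on 1 of 3 arrays in each region and too dim to compare. Myl4, a myosin light chain, had 7.07, 6.93 and 7.27 in HIP and 9.41, 9.36 and 9.55 in PFC, a difference of -2.35 ± 0.07. Mef2c, an activity-dependent transcription factor of cortical neurons, had 9.83, 9.99 and 9.89 in HIP and 11.99, 11.91 and 12.14 in PFC. It differed by -2.11 ± 0.08 (adjusted p = 3.86e-07), and its other 3 probes by -2.37, -1.08 and -0.86, all called.

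Of the 14 genes with the largest differences toward PFC, 10 were BeadChip-stable. They include the synaptic proteins Rims3 (-2.10 ± 0.07), of the presynaptic active zone, and Stx1a (-1.86 ± 0.09), the syntaxin of vesicle fusion. Efna5, the ligand ephrin-A5 that guides axons, was lower in HIP by -1.96 ± 0.08, and its second probe was above background on 1 of 3 arrays in each region and too dim to compare. Arpp21, a cAMP-regulated phosphoprotein, differed by -1.85 ± 0.07, and its other 2 probes by -0.75 and -0.69. Tnnc1 (-2.02 ± 0.08), a troponin C, Garnl3 (-2.04 ± 0.07) and the zinc-finger factor Tshz3 (-1.84 ± 0.07) completed them with Cobl, Myl4 and Mef2c. Igfbp6, Ankrd56, Krt1-12 and Cckbr were the 4 that differed between BeadChips. With BeadChip-stable probes alone, Hs3st2, a heparan sulfate sulfotransferase, Krt12, Osbpl1a and Rgs4, a regulator of G-protein signaling, took their places, with differences between -1.81 and -1.74. The other 3 probes of Osbpl1a, an oxysterol-binding protein, gave -1.14 and 0.25 on probes that differed between BeadChips, the second by 0.71 in NAc, and 1 that was not above background on any array of either region. The keratin 12 gene thus appears under the symbols Krt12 and Krt1-12, at -1.81 ± 0.07 and -1.97 ± 0.08.

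The largest difference of all BeadChip-stable probes toward PFC, noted after its values were seen, was of a probe with the provisional symbol LOC665506. It had 6.76, 7.02 and 6.83 in HIP and 10.53, 10.57 and 10.70 in PFC, a difference of -3.73 ± 0.08. A probe for Tcrb-V8.2, a T cell receptor beta gene segment, had 6.73, 6.66 and 6.78 in HIP and 9.23, 9.32 and 9.48 in PFC. It differed by -2.62 ± 0.07, and the NAc level of 6.61 was above background on 0 of 3 arrays. The naming rule leaves out symbols of these kinds, and a second Tcrb-V8.2 probe was not above background in either region.

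Of the 14 named genes with the largest differences toward HIP, 10 differed between BeadChips in at least 1 region. Arpc2 and Actr3, subunits of the actin-branching Arp2/3 complex, were 2.77 ± 0.14 and 2.23 ± 0.12 higher in HIP. For Arpc2 the levels were 10.18, 10.40 and 9.92 in HIP and 7.24, 7.27 and 7.68 in PFC. In NAc they were 7.85 and 8.14 on the first BeadChip and 9.91 on the second, so that pool 3 had the HIP level and pools 1 and 2 a level between the regions. The mitochondrial probe mt-Atp6 (2.33 ± 0.17) had a NAc BeadChip difference of 2.02. Hist1h2bc (2.16 ± 0.08), a histone H2B, and Arl8a (2.13 ± 0.17), a lysosomal small GTPase, had NAc BeadChip differences of 1.09 and 1.88. In HIP the second minus first BeadChip difference was -0.71 for mt-Atp6 and -0.50 for Arpc2. Across these genes the NAc BeadChip difference ranged from 1.09 (Hist1h2bc) to 2.02 (mt-Atp6), and region and BeadChip cannot be told apart with the arrays at hand.

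Several genes were measured by more than 1 probe, and probes of 1 gene differed. This was counted over tested probes above background on at least 3 of the 6 HIP and PFC arrays. Of 3486 genes with several such probes, 260 had probes called in opposite directions. Hspa8, the constitutive heat shock cognate chaperone, had a probe with 11.69, 11.89 and 11.29 in HIP and 8.86, 8.76 and 9.15 in PFC, a difference of 2.70 ± 0.15. Its other 2 probes differed by -0.13 ± 0.08 and -0.19 ± 0.08 and were BeadChip-stable. The first probe was 2.33 higher on the second NAc BeadChip than on the first, and the other 2 were 0.07 and 0.03 higher. Rtn1, a neuronal reticulon, had 1 probe that was 2.15 ± 0.19 higher in HIP and 4 probes between -0.15 and -0.41, of which 2 were called. Itm2b, a membrane protein processed to short peptides, had a probe at 2.08 ± 0.15 and a BeadChip-stable probe at 0.17 ± 0.07. In each of these 3 genes the probe with the large difference was the one with a NAc BeadChip difference over 1.5, and the values of the gene by array show it stepping between NAc pools 2 and 3. These genes were named after their values were seen, and not every gene went this way. Rn18s had a probe at 2.32 ± 0.21 that differed between BeadChips. Its BeadChip-stable probes gave 1.30 ± 0.24 and 0.15 ± 0.07, with NAc BeadChip differences of 0.31 and 0.10.

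**Figure D3:**
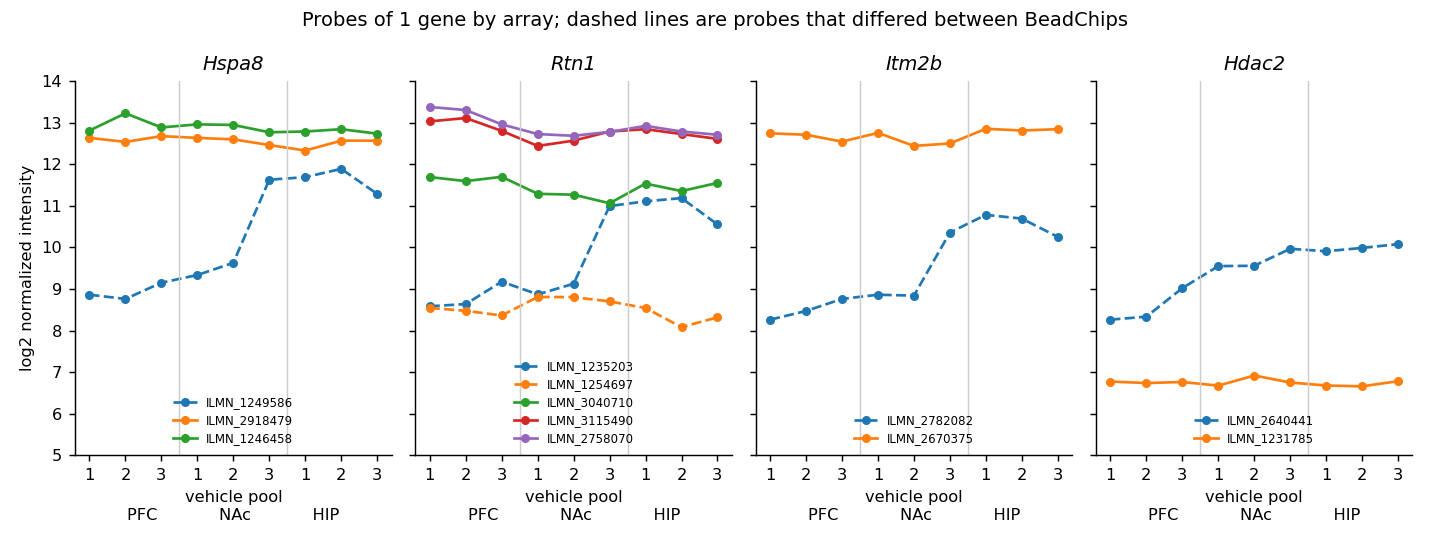
The log2 normalized intensity of each tested probe of Hspa8, Rtn1, Itm2b and Hdac2 is plotted for the 9 vehicle arrays, in the order PFC, NAc and HIP with pools 1 to 3 in each. Dashed probes differed between BeadChips. One Hspa8 probe lies between 8.76 and 9.15 in PFC and between 11.29 and 11.89 in HIP, while its other 2 probes lie between 12.33 and 13.22 on all 9 arrays.

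Gene lists of cell types and gene families, chosen with earlier results of these data known, were read against the 17.5% of all tested probes called higher and the 19.9% called lower, with 1 probe per gene. Of 12 dentate granule cell genes, 7 were tested and 6 were higher in HIP, 0 lower, with a median difference of 0.60, and all 7 were BeadChip-stable. Il16, a cytokine precursor, was at least 1.60-fold higher, Dsp, the desmosomal desmoplakin, at least 1.30-fold, and neither was above background on any PFC array. Such bounds set the HIP mean against the lowest signal above background on each PFC array. The dentate marker Tdo2 was below the detection filter. Of 8 tested genes of the whole hippocampal formation, 6 were higher and 0 lower (median 0.67). They included Spink8, Cabp7, Tspan18 (at least 1.53-fold), the mineralocorticoid receptor Nr3c2 (at least 1.07-fold) and Zbtb20.

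The pyramidal fields were less uniform. Of 8 tested CA1 genes 5 were higher and 2 lower (median 0.57), and of 7 BeadChip-stable ones 4 and 2. Fibcd1 and Lefty1, a secreted TGF-beta family inhibitor (1.53 ± 0.09), were higher. Mpped1, a phosphodiesterase, was 10.51, 10.31 and 10.19 in HIP and 10.97, 10.83 and 10.64 in PFC, lower by -0.48 ± 0.07, and was no longer called after median scaling. Of 5 tested CA2 genes 4 were higher and 0 lower (median 0.23), with Amigo2, a cell adhesion molecule, at 0.70 ± 0.07 and Rgs14, a G-protein regulator that restrains plasticity in CA2, at least 1.20-fold. Of 10 tested CA3 and mossy cell genes 6 were higher and 1 lower (median 0.45), and of 8 BeadChip-stable ones 5 and 1. Bok, a BCL2-family gene, was 1.30 ± 0.08 higher (its second probe was not called, at 0.21), Iyd, an iodotyrosine deiodinase, was at least 1.43-fold higher and Ajap1 was lower (-0.63 ± 0.07). The kainate receptor gene Grik4 was not called (0.09 ± 0.07).

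**Figure D4:**
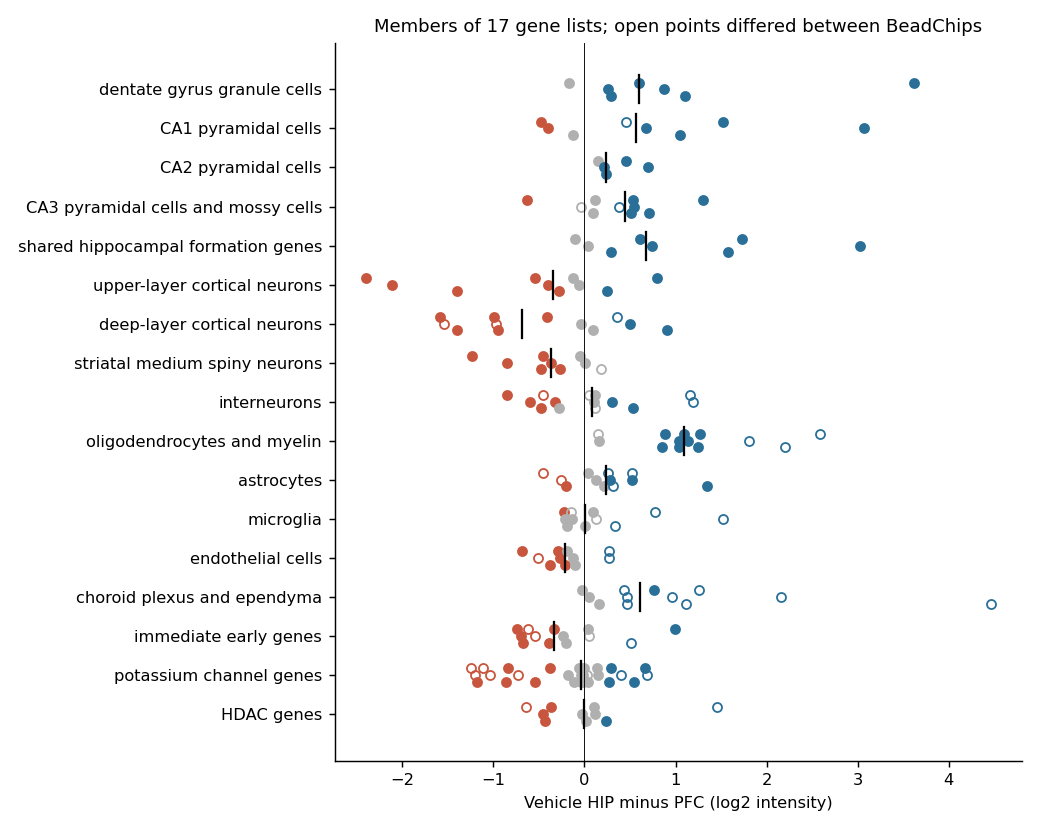
Each point is the HIP minus PFC difference (log2 intensity) of 1 tested gene of a list, blue where called higher in HIP, red where called lower, gray where not called, with a line at the median of the list. Open points differed between BeadChips. The dentate median is 0.60, the myelin median 1.09, the upper-layer median -0.34 and the deep-layer median -0.68, and 8 of the 9 called choroid plexus points are open.

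Of 10 tested upper-layer cortical genes 6 were lower in HIP and 2 higher (median -0.34). Lamp5, a membrane protein of upper-layer neurons listed under a clone symbol, had 9.35, 9.36 and 9.56 in HIP and 11.77, 11.88 and 11.83 in PFC, a difference of -2.40 ± 0.07. Cux2, a homeobox factor of upper layers, differed by -1.39 ± 0.12, and its second probe was above background on 0 of 3 HIP and 1 of 3 PFC arrays. Nr4a2, a nuclear receptor placed in the same list, went the other way, at 0.80 ± 0.08. Of 12 tested deep-layer genes 7 were lower and 3 higher (median -0.68). Tbr1, the T-box factor of layer VI neurons, had 7.64, 7.72 and 7.61 in HIP and 9.28, 9.29 and 9.15 in PFC, a difference of -1.58 ± 0.07. Tox (-1.40 ± 0.07), a nuclear HMG-box factor, and Ctgf (-1.54 ± 0.11), a matrix protein of the deepest layer, were lower. Bcl11b, a zinc-finger factor of deep-layer projection neurons and also of hippocampal neurons, was 0.91 ± 0.07 higher in HIP. Fezf2, which specifies subcortical projection neurons and appears as Zfp312, was lower by -0.98 ± 0.07 on a probe that differed between BeadChips and by -1.27 ± 0.07 on a BeadChip-stable probe listed as Fezf2. Within the lists, BeadChip-stable members gave 6 lower and 2 higher for the upper layers and 5 lower and 2 higher for the deep layers.

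Transcription factors shared by telencephalic excitatory neurons were mostly higher in HIP, 6 of 9 tested with 2 lower (median 0.29), and 3 of 5 BeadChip-stable members. Nfib, a nuclear factor I gene, was 1.04 ± 0.10 higher and lost its call in the fit of all 36 arrays and in the one-way analysis of variance. Genes of cortical areal patterning went both ways, with 4 of 8 higher and 2 lower (median 0.06), and 2 higher and 2 lower of 6 BeadChip-stable ones (median -0.16). Epha7, an ephrin receptor, was 0.59 ± 0.11 higher in HIP, while Efna5, which encodes a ligand of this receptor class, was lower as given above. Striatal medium spiny neuron genes were lower in HIP for 6 of 9 tested and higher for 0 (median -0.36), and of 8 BeadChip-stable ones 6 and 0. Tac1, the precursor of substance P, had 7.99, 7.54 and 7.65 in HIP, 8.46, 8.55 and 8.72 in PFC and a mean of 11.998 in NAc, and differed by -0.85 ± 0.11. Interneuron genes were split, with 4 of 14 higher and 5 lower (median 0.08), and 2 higher and 4 lower of 9 BeadChip-stable ones (median -0.27). Gad1 (1.20 ± 0.16), which makes GABA, and Sst (1.15 ± 0.12), a peptide, were higher on probes that differed between BeadChips, and Npy, a peptide, was lower (-0.60 ± 0.07).

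Myelin genes were higher in HIP. Of 13 tested genes of oligodendrocytes and myelin 11 were higher and 0 lower, with a median difference of 1.09, and 8 of the 9 BeadChip-stable members were higher (median 1.04). Mbp, myelin basic protein, had 13.30, 13.39 and 13.24 in HIP and 12.34, 12.08 and 12.23 in PFC, a difference of 1.09 ± 0.08. Of the other 4 Mbp probes 3 were higher (0.65 to 1.23) and 1 was lower (-0.66 ± 0.07), all BeadChip-stable. Mog (1.27 ± 0.08) and Mag (1.14 ± 0.08), glycoproteins of the myelin sheath, and Sox10 (0.85 ± 0.07), the oligodendrocyte lineage factor, were higher. Mobp, a basic protein of oligodendrocytes, was 2.58 ± 0.13 higher on a probe that differed between BeadChips by 1.04 in NAc, and its 4 BeadChip-stable probes gave 1.56, 1.10, 0.89 and 0.18. Olig2, a factor of the whole lineage, was not called (0.16 ± 0.07). The summed linear intensity of the list ranged from 29354 to 32901 in HIP and from 10701 to 13064 in PFC, and its part in other differences was not tested.

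Genes of choroid plexus and ependyma, tissue of the ventricle next to the hippocampus, were higher in HIP for 9 of 12 tested and lower for 0 (median 0.61). Ttr, transthyretin, the main secreted protein of choroid plexus, had 13.32, 13.11 and 11.25 in HIP and 7.59, 7.43 and 9.28 in PFC. Pool 3 was the lowest of HIP and the highest of PFC, the difference was 4.46 ± 0.57 (adjusted p = 2.52e-04), and it was 5.71 without pool 3. Enpp2, or autotaxin, was 2.16 ± 0.23 higher, with 11.35, 11.24 and 10.17 in HIP. Kl, which encodes klotho, was at least 2.15-fold higher. The summed linear intensity of the list ranged from 4802 to 14602 in HIP and from 1555 to 2148 in PFC. Of the 12 genes, 4 were BeadChip-stable and 1 of these was called (Dynlrb2, a dynein light chain, 0.76 ± 0.07), with a median over the 4 of 0.10. The part of choroid plexus tissue in the HIP differences was not tested.

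Over all tested members, other glial, vascular, meningeal and blood lists had smaller median differences in size than myelin and choroid plexus. Among BeadChip-stable members this did not hold for choroid plexus, with a median of 0.10. The others had 0.21 (astrocytes), -0.17 (microglia), -0.24 (endothelial), -0.22 (meningeal) and -0.18 (blood). Astrocyte genes were higher for 6 of 12 and lower for 3 (median 0.24), with 3 and 1 of 7 BeadChip-stable ones, and Gfap, the intermediate filament of astrocytes, had 10.81, 10.70 and 10.22 in HIP and 9.60, 9.40 and 8.69 in PFC, a difference of 1.35 ± 0.08. Microglial genes were higher for 3 of 11 and lower for 1 (median 0.00), and all 3 higher members, Csf1r and P2ry12 among them, differed between BeadChips, which left 0 higher and 1 lower of 6 BeadChip-stable ones. Endothelial genes were lower in HIP for 6 of 11 and higher for 2 (median -0.21), with 5 lower and 0 higher of 8 BeadChip-stable ones and Ly6c1, a surface antigen, at -0.69 ± 0.11. Meningeal and fibroblast genes were lower for 6 of 10 and higher for 1 (median -0.24), and 4 and 1 of 8 BeadChip-stable ones. Mgp, matrix Gla protein, was lower (-1.31 ± 0.09) and Dcn, decorin, which CA1 neurons are also known to express, was higher (1.05 ± 0.12). Blood genes were lower for 2 of 4 and higher for 0 (1 lower of 3 BeadChip-stable), thalamic genes were called 2 in each direction of 8 (2 higher and 1 lower of 6 BeadChip-stable), and the 2 tested olfactory bulb genes were both higher (1 of 1 BeadChip-stable). These were Calb2, which lost its call in 5 alternatives including that without pool 1, and Cdhr1, which lost it in 6 including those without pool 1 and without pool 2. The same Calb2 probe was also counted as higher in the thalamic list and in the CA3 and mossy cell list. The part of any list of this paragraph in other differences was not tested.

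Of 10 tested serotonin receptor genes, Htr1a (0.77 ± 0.07), an inhibitory receptor, and Htr5b (0.72 ± 0.08) were higher in HIP and 0 were lower. Both were among the 8 BeadChip-stable ones. Htr1a had 7.91, 8.02 and 7.99 in HIP and 7.14, 7.24 and 7.23 in PFC, without overlap. Of 8 GABA-A receptor subunit genes 5 were lower and 1 higher (median -0.26), and of 6 BeadChip-stable ones 4 and 0, with Gabra3 2.01-fold lower (adjusted p = 1.93e-05) and Gabrd, the subunit of extrasynaptic receptors, at -0.98 ± 0.09 on a probe that differed between BeadChips and -0.91 ± 0.07 on one that did not. Of 13 ionotropic glutamate receptor genes 2 were higher and 4 lower (median -0.07), and of 11 BeadChip-stable ones 1 and 3. Gria1, the AMPA receptor subunit GluA1, had 11.38, 11.40 and 11.49 in HIP and 10.40, 10.29 and 10.53 in PFC, a difference of 1.01 ± 0.07. Of 29 potassium channel genes 6 were higher and 10 lower (median -0.04), and of 20 BeadChip-stable ones 4 and 5. Kcnv1, a silent modifying subunit (-1.18 ± 0.07), Kcna2, a delayed rectifier of axons (-0.86 ± 0.07), and Kcnt1, a sodium-activated channel (-0.84 ± 0.07), were lower on BeadChip-stable probes. Kcnip2, an auxiliary subunit of A-type channels, was higher (0.66 ± 0.07).

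Stress-related and activity-related genes also differed between the regions under vehicle. Of 11 tested corticosteroid receptor and chaperone genes 5 were higher and 3 lower (median 0.20), and of 9 BeadChip-stable ones 4 and 3. Hsd11b1, which regenerates active glucocorticoid, was 0.85 ± 0.07 higher in HIP, and Fkbp5, a glucocorticoid-induced co-chaperone, was 0.71 ± 0.07 higher. The glucocorticoid receptor Nr3c1 was not called (0.18 ± 0.07). Immediate early genes were lower in HIP for 7 of 13 and higher for 2 (median -0.33), and of 9 BeadChip-stable ones 5 and 1. Dusp1, a MAP kinase phosphatase, was lower (-0.67 ± 0.07), and Jun, an AP-1 factor, had 8.55, 8.23 and 8.45 in HIP and 7.44, 7.32 and 7.48 in PFC and was higher (1.00 ± 0.07). Arc, a plasticity gene, was lower (-0.74 ± 0.16) with overlapping groups, at 8.35, 8.50 and 8.27 in HIP and 9.57, 9.33 and 8.42 in PFC, and lost its call with the BeadChip as a random block. Of 8 neurotrophin and receptor genes, Ntf3 was higher (at least 1.07-fold) and Ntrk3 (-0.44 ± 0.07, with a second probe at 0.45 ± 0.08 that differed between BeadChips) and Vgf, an activity-regulated secreted peptide precursor (-0.89 ± 0.08), were lower, all 3 among the 7 BeadChip-stable ones. The call on Ntf3 was lost without pool 1. Bdnf was not called (-0.07 ± 0.07). Of 8 adult neurogenesis genes Sox11 (0.40 ± 0.08) and Igfbpl1 (at least 1.01-fold) were higher and Dcx, doublecortin, was lower (-0.28 ± 0.07). The second probes of Sox11 and Dcx were not called (0.00 and -0.09). The calls on Igfbpl1 and Dcx were lost without pool 2 and pool 1, respectively.

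The HDAC genes include targets of the inhibitors used elsewhere in the study, but not every member is a target of each. For Cpd-60 the paper reports no appreciable inhibition of the class II enzymes. Of 10 tested HDAC genes 2 were higher and 4 lower (median 0.00), and of 8 BeadChip-stable ones 1 and 3. Hdac2, a class I enzyme, had 9.91, 9.99 and 10.08 in HIP and 8.26, 8.33 and 9.02 in PFC, a difference of 1.45 ± 0.11. That probe was 0.90 higher on the second NAc BeadChip, and the other Hdac2 probe was near background in both regions, above it on 1 of 3 HIP and 2 of 3 PFC arrays, and too dim to compare. Hdac4 (-0.43 ± 0.09), Hdac7 (-0.37 ± 0.08) and Hdac9 (-0.45 ± 0.07, listed under a clone symbol), all class IIa, were lower on BeadChip-stable probes, while the probe listed as Hdac9 was above background on 0 of 3 HIP arrays and was not called, and Hdac11 was lower (-0.65 ± 0.07) on one that was not. Hdac3 was 0.24 ± 0.07 higher and lost its call in 7 alternatives, among them those without the pool block, without pool 1 and without pool 2. Of 15 cytosolic ribosomal protein genes 5 were higher and 0 lower (median 0.05), and of 6 BeadChip-stable ones 3 and 0.

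The inhibitor-treated mice gave the same comparison in 18 arrays of 9 further pools, on the same BeadChips. There 4889 probes were higher in HIP (22.6%) and 6315 lower (29.2%). Of the 8075 probes called in vehicle, 7365 were called in the same direction and 0 in the opposite one. Of the 4478 called BeadChip-stable probes, 3904 were called in the same direction and 4427 had the same sign. All 42 leading probes were called in the same direction. C1ql2 differed by 3.47 ± 0.07 in the treated pools, Fibcd1 by 3.22 ± 0.08, Prox1 by 1.18 ± 0.06, Cckbr by -3.03 ± 0.10 and Mef2c by -2.18 ± 0.07. The vehicle difference minus the mean of the 3 inhibitors was tested on 12 pool differences, and 0 of 21632 probes were called in either direction (0%) by limma at an adjusted p under 0.05, with 745 at an unadjusted p under 0.05. The smallest adjusted p was 0.999. Ttr had the largest gap of the 42, at 0.83 ± 0.77 (SE), and its interval is wide.

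**Figure D5:**
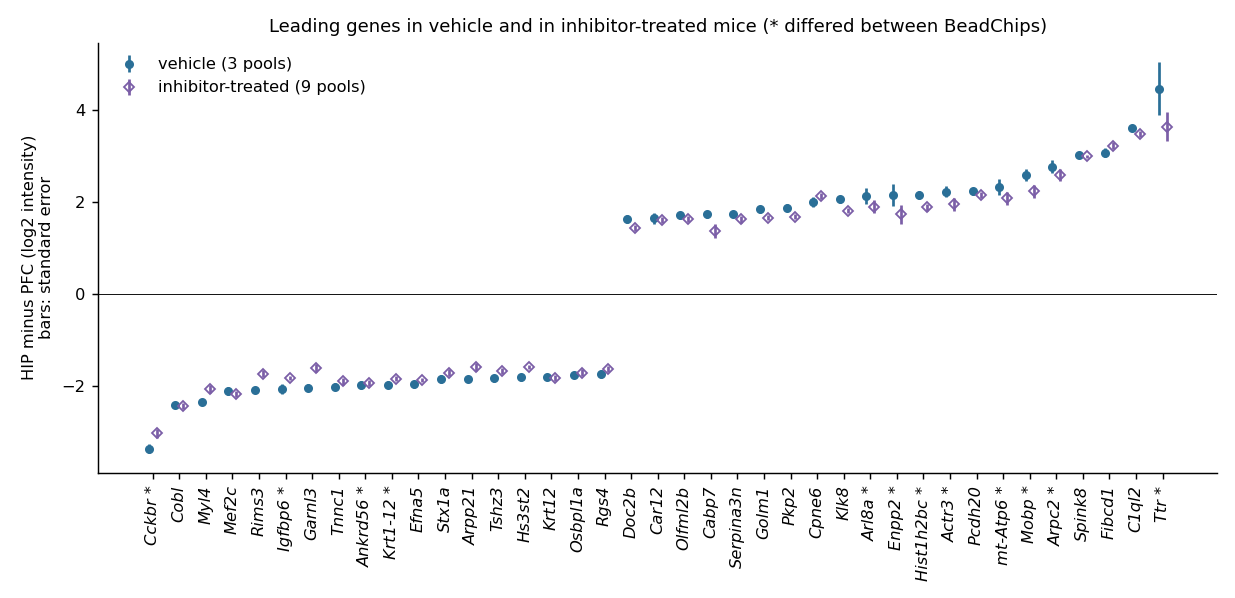
The HIP minus PFC difference (log2 intensity) of 39 of the 42 leading probes is plotted for 3 vehicle pools (filled circles) and for 9 inhibitor-treated pools (open diamonds), with bars of 1 SE and an asterisk on genes that differed between BeadChips. Every gene plotted lies on the same side of 0 in both, from -3.37 (Cckbr) to 4.46 (Ttr) in vehicle.

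Against the NAc of the same pools, which shares the HIP arrays, 870 of 21629 probes were higher in HIP (4.02%) and 1037 were lower (4.79%). C1ql2 was 3.95 ± 0.12 higher in HIP than in NAc and Prox1 was 1.20 higher (adjusted p = 0.0090), so HIP was the highest of the 3 regions for both. For Cckbr the order was PFC, NAc and HIP, with HIP minus NAc of -1.12 (adjusted p = 0.0079), and Mef2c had HIP minus NAc of -0.37 (adjusted p = 0.048). Myl4 and Tnnc1 had HIP and NAc levels that did not differ beyond their spread (0.12 and 0.01, adjusted p = 0.72 and 0.93). Arpp21 was highest in NAc, with a HIP minus NAc difference of -3.76. These counts moved with every pool. With all pools 1907 probes were called, against 478 without pool 1, 185 without pool 2 and 7688 without pool 3, which is the only vehicle NAc pool on the second BeadChip.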

How the data were processed

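RNA of medial PFC, NAc and HIP was extracted, pooled from 2 mice per array, labelled and hybridized to Illumina MouseWG-6 BeadChips. The authors' deposited values are the intensity of 45281 probes on 36 arrays, linear and neither background-subtracted nor normalized, and a detection p-value per probe. In R 4.3.3 with limma 3.58.1, all 36 arrays were quantile normalized together (floor 1) and log2 transformed. Probes with a detection p of at most 0.2 in 3 of 3 arrays of HIP or PFC were tested, with the pool as a block, since both regions came from the same mice. P-values were adjusted by Benjamini-Hochberg over all tested probes. The deviations of same-numbered HIP and PFC arrays had correlations of 0.29, -0.08 and 0.24. In the fit of all 36 arrays, the consensus correlation of arrays of the same pool was -0.0093.

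Without background subtraction a difference understates the change of a dim gene. The number of arrays limits the precision. The SE and p-values from limma use a moderated variance, which combines the spread between pools of a probe with that of all tested probes. Named genes were the 14 largest called differences in each direction with 3 of 3 pools alike, no overlap and above background in the brighter region, 1 probe per gene (the highest mean signal), no clone, LOC or accession symbol, plus Prox1, Zbtb20, Wfs1 and Neurod2 and up to 4 members per gene list (the largest called differences each way). Other list members, Hspa8, Rtn1 and Itm2b were named after their values were seen. Alternatives covered normalization, scaling, detection, the block and leaving out pools. The members and lists were chosen with earlier results of these data known. BeadChip-stable probes were defined, and genes ranked on them, after seeing the data. Of 30869 symbols on the array, 21929 matched a RefSeq symbol or synonym. Values of some probes are not reported here. The fit was checked on simulated data with independent noise and no shift between the BeadChips of HIP and PFC. That check therefore cannot speak to the BeadChip difference.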

Additional observations from a re-analysis of the deposited data

How the results depend on the processing

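Of the count of probes called in HIP minus PFC in vehicle (8075), the detection threshold of 0.01, the lack of any detection filter, neqc, quantile normalization of the 6 arrays or of the 27 without CI-994 and the fit without the replicate block (7283) kept it within 1.5 times. The pairing by pool therefore changed no count by more than that in HIP against PFC, but HIP minus NAc in vehicle rose from 1907 to 3573 without the replicate block. With the BeadChip as a random block and no replicate block 6056 were called. A one-way analysis of variance, the test that the methods name for treatment within a region, was applied here to HIP against PFC without pairing. It called 4392, of which 2358 were higher and 2034 lower, and BeadChip-stable probes alone gave 4478, of which 1499 were higher. Median scaling gave 1205 lower against 4298, and moved the median of all probes from -0.03 to 0.06. One fit of all 36 arrays gave 2787 lower. Leaving out each pool in turn gave 4869 (without pool 1) to 9221 (without pool 3) in all, 2608 to 4172 higher and 2261 to 5049 lower, and 185 to 7688 for HIP minus NAc. The difference between vehicle and inhibitor-treated pools stayed at 0 calls by limma in every alternative run (480 to 825 at an unadjusted p under 0.05). The cause of these shifts was not tested.

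Of 127 named probes, 83 kept direction and call in every alternative run on them. Calls were lost in 124 of 1732 combinations of probe and alternative, and 2 turned sign, Wfs1 (0.11) and Hbb-b1, a hemoglobin gene (0.018), both under median scaling. The leading 42 probes kept direction and call in every alternative run on them. They were chosen on the same HIP and PFC arrays as large called differences without overlap, so nothing is read from this. Under neqc, which subtracts background, 40 of 126 called named probes moved by over 1.5 times, with Spink8 at 4.65, Klk8 at 3.45, Cabp7 at 3.16, Prox1 at 2.14, Zbtb20 at 1.40 and Hs3st2 at -2.98 log2 units.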
